A study of Mus musculus with 3 samples.

Results

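The genes described here are the translation factors and RNA helicases of mouse oocytes, taken as every gene in the deposited table whose symbol starts with Eif, Eef, Ddx or Dhx. There were 51 such genes among the 6104 gene symbols of the table, covered by 73 of its 9126 transcript rows. The members were 22 initiation factor genes (Eif), 3 elongation factor genes (Eef), 18 Ddx genes and 8 Dhx genes. Where a gene had several rows, the row with the highest mean over the libraries was entered, and the sum over its rows is given where it changes the picture.

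Oocytes of ICR mice were matured in culture for 16 to 18 h from the germinal vesicle stage to metaphase II, where the egg arrests until fertilized. The aged-sec library held aged oocytes whose M16 medium was mixed 1 to 1 with hUC-MSC-sec, the secretome of mesenchymal stem cells from human umbilical cord. The aged library held aged oocytes and the young library young oocytes, both matured in M16 medium without it. The groups were read from the sample titles and the design text, because the treatment label names the secretome on all 3 samples. Each group was 1 library made from a pool of 20 oocytes of 4 mice, and the sources used here do not give the ages of the mice. There is therefore no replicate error, no test and no p-value, and every difference is between libraries.

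The values are TPM, which sum to 1000000 over a whole library, so a level is corrected for transcript length and is a share of that library. Listed rows held 32.1% of all TPM for aged-sec, 32.5% for aged and 22.9% for young oocytes. The lowest aged over young ratio in the table was 1.2, so the table holds a selection of transcripts that stood higher in the aged library, and a transcript lower in aged than in young could not appear. The same selection favours a chance high aged value or a chance low young value, which places aged-sec below aged and above young without any effect. Depth is unknown from TPM, and in these pools fewer cells of a type and less RNA per cell cannot be told apart. Of 16 oocyte markers 4 were listed, led by Bmp15 at 799 TPM in aged-sec, 817 TPM in aged and 585 TPM in young oocytes. Of 14 cumulus and granulosa markers only Fshr was listed, at 0.22, 0.55 and 0.03 TPM in the same order, and none of 5 blood markers was. Because of the selection, an unlisted marker may still be present in the libraries, so these counts do not measure the purity of the pools.

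Translation starts when the cap-binding complex eIF4F, the multi-subunit eIF3 and the eIF2 complex carrying initiator tRNA bring the small ribosomal subunit to an mRNA, and eEF1A then delivers each further aminoacyl-tRNA. Ddx and Dhx proteins are ATP-dependent RNA helicases that remodel RNA in splicing, export, ribosome assembly, translation and storage. A fully grown oocyte is transcriptionally silent, so the proteins it newly makes during maturation come from stored maternal mRNAs. Their translation is switched on and off by such factors.

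The 4 gene name prefixes cover 125 protein-coding genes in the RefSeq annotation of assembly GRCm38.p6, and the table listed a transcript of 51 of them, or 40.8%, against 27.3% of all protein-coding genes. Coverage was 22 of 56 Eif genes, 3 of 16 Eef genes, 18 of 37 Ddx genes and 8 of 16 Dhx genes. Whether these shares follow age or simply expression in oocytes was not tested. The other genes, among them Eif4e, Eif4a1, Eif2ak3, Eif2ak4, Eef2, Eef2k, Ddx20 and Dhx36, were not analysed here. For 13 members every annotated mRNA was listed, and for the other 38 some annotated variants were missing, so their values are not those of the whole gene. For instance, Eif4g3 had 2 listed of 55 annotated mRNAs and Ddx6 had 2 of 7.

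Levels were concentrated in few genes. The entered rows of all members summed to 1401 TPM in aged-sec, 1462 TPM in aged and 1067 TPM in young oocytes, and the 6 most abundant ones made up 78.3%, 75.5% and 78.3% of that. In at least 1 library 17 members reached 10 TPM and 5 reached 100 TPM, while 9 stayed under 1 TPM in every library. Those 5 were Eif3e, Eif5, Ddx3x, Ddx24 and Eif5a.

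**Figure D1:**
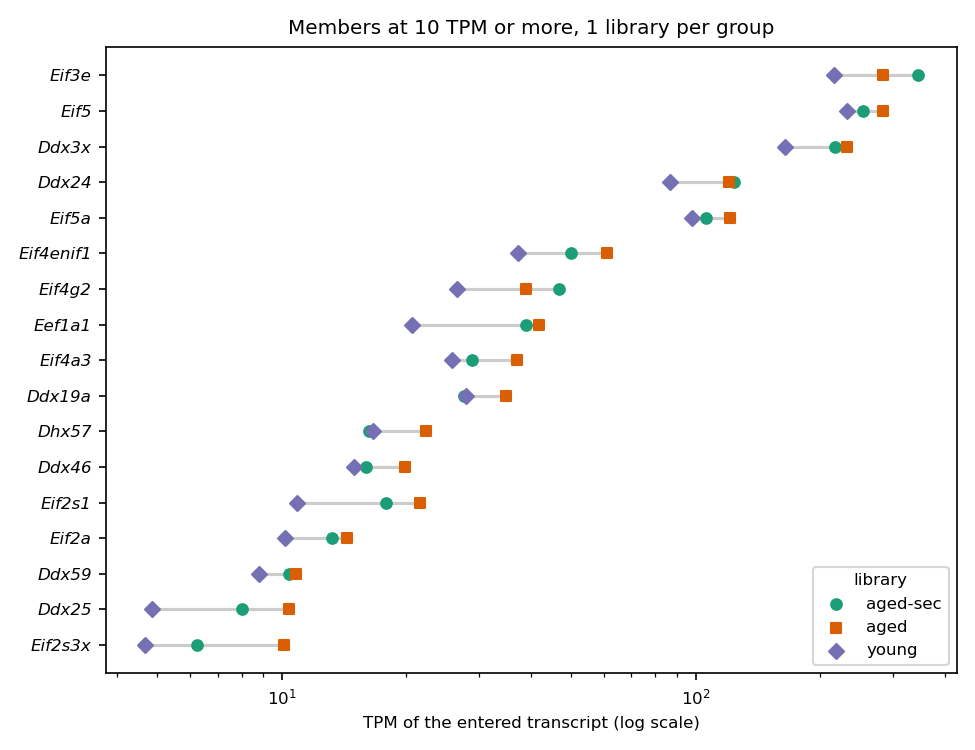
TPM (log axis) of the entered transcript of the 17 members that reached 10 TPM, with 1 point each for the aged-sec, aged and young libraries. Young is the lowest point for 15 of the 17; for Ddx19a and Dhx57 aged-sec is lowest, and aged-sec is the highest point for Eif3e, Eif4g2 and Ddx24.

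For aged against young oocytes the question is how far above young the members stood, since the table fixes the direction. The size rule called a gene when its ratio reached 2, with 0.5 TPM added to both values, and the higher library held at least 10 TPM. It was met by 3 of the 51 members, against 4.59% of all 6104 symbols. Among genes with enough TPM these were 3 of 17 members, against 280 of 1759 symbols or 15.9%, so the members met the rule about as often as the table at large. Members had a median log2 ratio of 0.48 (ratios from 1.2 to 28.5), against 0.47 over all symbols. The members closest to the table's lower limit were Ddx6 at a ratio of 1.2 and Ddx21 and Eif3b at 1.21 each.

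The 3 genes were Eif2s3x, Ddx25 and Eef1a1, all with every annotated mRNA listed. Eif2s3x (NM_012010), the X-linked gamma subunit of eIF2 that binds initiator tRNA, stood at 6.25 TPM in aged-sec, 10.1 TPM in aged and 4.67 TPM in young oocytes. Ddx25 (NM_013932), a helicase known in mouse spermatids for export and translation of stored mRNA, stood at 8.03, 10.4 and 4.86 TPM in that order. Eef1a1 (NM_010106), which delivers aminoacyl-tRNA to the ribosome, stood at 39.0, 41.9 and 20.7 TPM. The log2 ratios of aged over young were 1.04 for Eif2s3x, 1.03 for Ddx25 and 1.00 for Eef1a1. All 3 were thus at the edge of the rule, and with 1 TPM added in place of 0.5 none of them met it. Eif2s1 (NM_026114), the alpha subunit of eIF2 that stress kinases phosphorylate, came just short at 21.6 TPM in aged and 10.9 TPM in young oocytes, a log2 ratio of 0.95. Eef1a1, Eif2s3x and Ddx3x have close copies elsewhere in the mouse genome, and reads shared with those could be divided by the quantification.

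Because Eif2s3x, Ddx25 and Eef1a1 were the members past the rule, their annotated promoters are shown, from 70 bases before to 30 bases after the RefSeq start in GRCm38.p6, 5′ to 3′ on the gene's strand. Capitals mark the first 12 bases from the annotated start, which may not be the start used in oocytes. Many mRNAs of the translation machinery begin with a cytosine followed by a run of pyrimidines, the terminal oligopyrimidine motif through which TOR signalling controls their translation.
Eif2s3x, chrX:94212622-94212721, minus strand: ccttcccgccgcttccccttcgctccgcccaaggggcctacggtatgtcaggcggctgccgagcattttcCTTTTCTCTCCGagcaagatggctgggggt
Eef1a1, chr9:78481695-78481794, minus strand: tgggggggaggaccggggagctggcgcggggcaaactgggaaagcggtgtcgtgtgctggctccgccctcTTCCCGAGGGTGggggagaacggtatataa
Ddx25, chr9:35558441-35558540, minus strand: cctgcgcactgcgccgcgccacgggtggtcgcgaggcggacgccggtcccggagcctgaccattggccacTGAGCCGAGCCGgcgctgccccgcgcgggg
The annotated start of Eif2s3x was a cytosine, with 11 pyrimidines in a row counted from it and further pyrimidines directly before it. The annotated start of Eef1a1 opened with 5 pyrimidines but not with a cytosine, and that of Ddx25 had 1 pyrimidine. The printed bases of Eef1a1 end in a TATA-like stretch that lies after its annotated start. The start used in oocytes was not measured, so these bases do not show whether Eef1a1 mRNA carries the motif. A start with a cytosine and then at least 4 pyrimidines was found for 2 of the 43 members with a promoter in the table (Eif2s3x and the splicing helicase gene Dhx16), or 4.65%, against 3.06% of all listed symbols and 3.01% of all genes of the promoter table. These shares are close, and the match depends on the exact annotated start.

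Setting aged-sec beside aged oocytes asks whether culture with the secretome went with other levels of these mRNAs. By the size rule 0 of the 51 members differed in their entered row, against 0.639% of all symbols that were lower and 0.0491% that were higher in aged-sec oocytes. Among symbols with 10 TPM or more in the higher library those shares were 2.18% and 0.168%. At any size, 42 members were below aged and 9 above, or 82.4% below, against 72.5% of all symbols. The median log2 ratio was −0.30 over the members and −0.20 over all symbols. With the libraries scaled to equal medians of the listed rows 21 members were below aged and 30 above, or 41.2% below, against 44.1% of all symbols. With median-of-ratios scaling 31 were below and 20 above, or 60.8% below, against 49.7% of all symbols. The table as a whole moved with the scaling in the same way, and whether the members' shares differ from those of all symbols was not tested. The family counts below aged that follow are to be read against these shares of all symbols, 72.5% as deposited, 44.1% with equal medians and 49.7% with median of ratios. Among the 17 members at 10 TPM or more 14 were below aged, against 74% of all symbols at that level, with a median of −0.19 against −0.18.

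**Figure D2:**
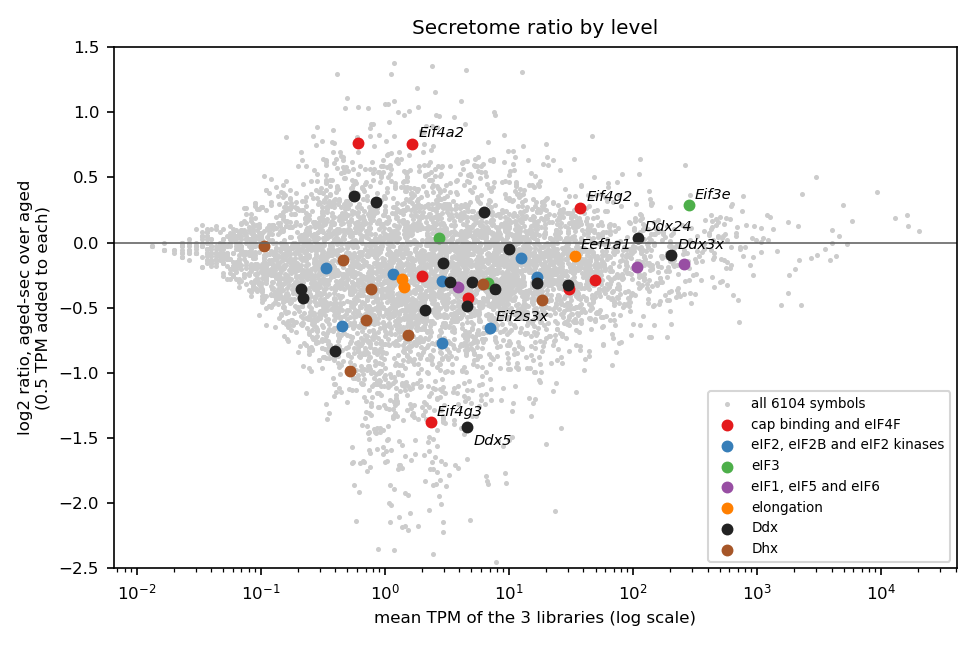
Log2 ratio of aged-sec over aged (0.5 TPM added to each) against mean TPM of the 3 libraries (log axis), with the 51 members in colour by family and all 6104 symbols in grey. The abundant members Eif3e and Eif4g2 lie above 0, the lowest points are Ddx5 and Eif4g3, and 19 grey points fall outside the plotted range.

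Aged-sec oocytes were also set beside young ones. No member met the size rule, against 3.74% of all symbols that were higher and 0.0819% that were lower in aged-sec oocytes, or 14.2% and 0.311% of those with 10 TPM or more in the higher library. The median log2 ratio of aged-sec over young was 0.23 for the members and 0.29 for all symbols. On the log scale 28 members (54.9%) were nearer to young than to aged in aged-sec oocytes, against 42.6% of all symbols. With equal-median scaling 14 of the 51 members were nearer to young, against 41.5% of symbols, and with median-of-ratios scaling 16 of 51, against 41.1%. The members' share was thus above that of all symbols as deposited and below it under either scaling, and the difference was not tested. At or below the young value were 13 members, or 25.5%, against 24.4% of symbols. This comparison shares the young and aged-sec libraries with the previous ones, so its values are not independent of theirs.

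**Figure D3:**
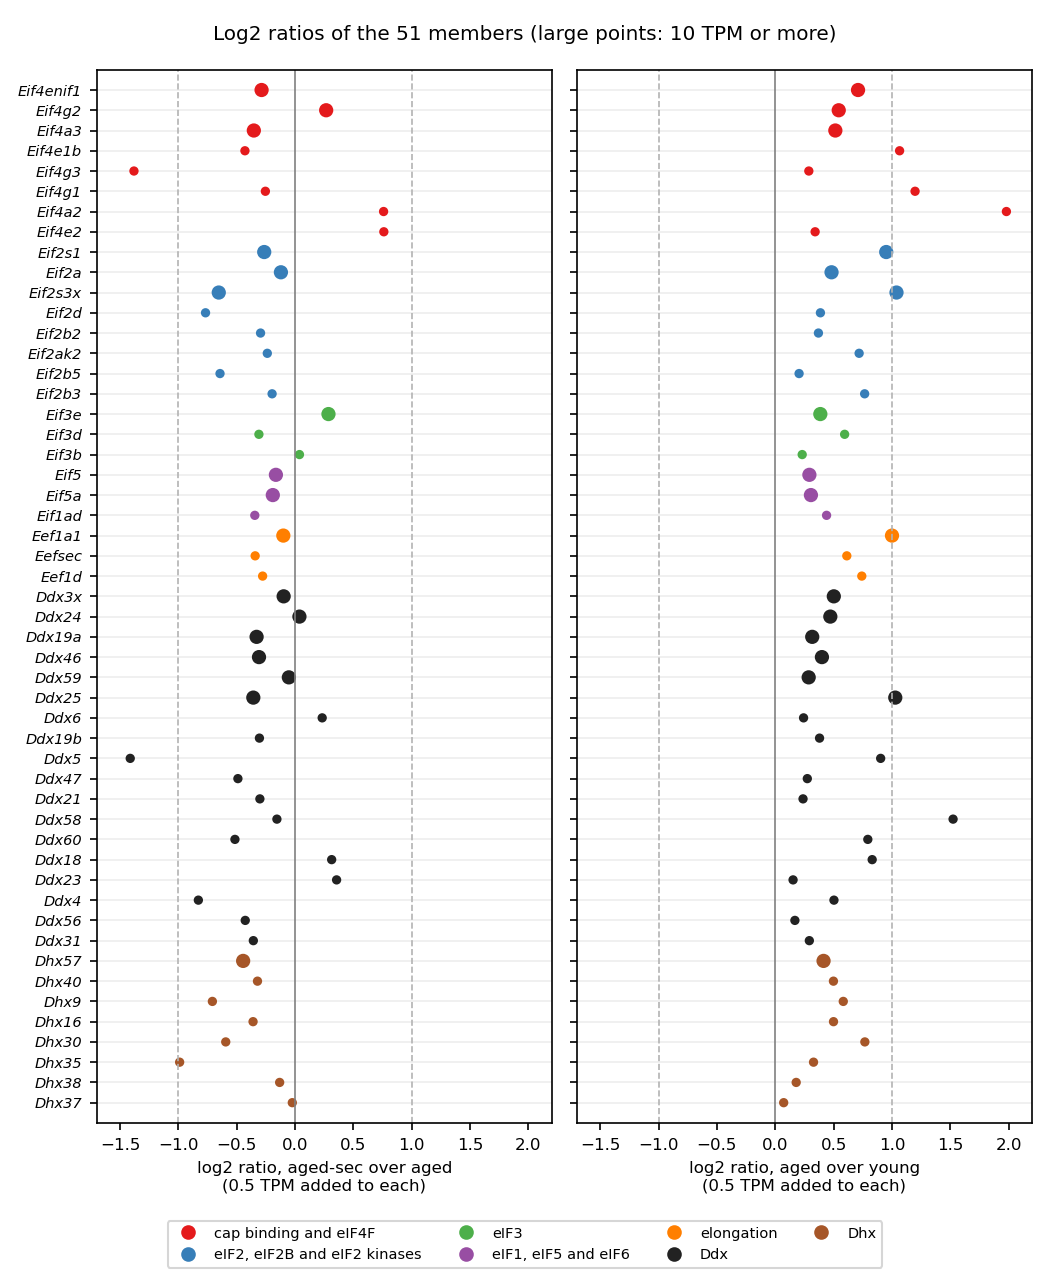
Log2 ratios (0.5 TPM added to each value) of all 51 members, aged-sec over aged on the left and aged over young on the right, grouped by family and ordered by mean TPM within it. Dashed lines mark a 2-fold ratio, large points mark members that reached 10 TPM, and no large point lies beyond a dashed line on the left.

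Of the genes of the cap-binding complex and its partners 8 of 16 were listed. As deposited 5 were below aged in aged-sec oocytes and 3 above, while 2 were below under equal-median scaling and 4 under median-of-ratios scaling. The most abundant was Eif4enif1 (NM_001166548), the eIF4E transporter 4E-T that holds eIF4E-bound mRNAs in a repressed state, at 49.96 TPM in aged-sec, 61.1 TPM in aged and 37.2 TPM in young oocytes. As deposited its aged value was the highest of the 3, and aged-sec lay between aged and young. A predicted variant (XM_006514843) that was not entered stood at 9.60 TPM in aged-sec, 12.4 TPM in aged and 3.06 TPM in young oocytes and met the size rule for aged over young. Eif4g2 (NM_013507), a scaffold related to eIF4G that lacks the eIF4E-binding region, stood at 46.9 TPM in aged-sec, 38.9 TPM in aged and 26.5 TPM in young oocytes. It was one of 3 members at 10 TPM or more that were higher in aged-sec than in aged, by a ratio of 1.21. Eif4a3 (NM_138669), the helicase of the exon junction complex, stood at 28.8, 37.0 and 25.7 TPM, so that aged-sec was close to young as deposited. Under those scalings aged-sec was 0.75 and 0.79 times young for Eif4a3.

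The other cap-complex genes were low, and only some of their variants were listed. Eif4e1b (XM_017315485), an eIF4E relative expressed in oocytes, stood at 4.72 TPM in aged-sec, 6.53 TPM in aged and 2.86 TPM in young oocytes. Its 3 listed rows summed to 10, 12.5 and 5.14 TPM, which met the size rule for aged over young. Eif4a2 (NM_001123037), the second eIF4A helicase, had the largest age ratio of all members, 28.5, but its levels were 3.24 TPM in aged-sec, 1.71 TPM in aged and 0.06 TPM in young oocytes. For Eif4g1, the main scaffold of eIF4F, a second variant (NM_001304432) stood at 2.98, 1.89 and 0.04 TPM, beside 2.25, 2.78 and 0.93 TPM of the entered one (XM_006521946). The 2 variants were on opposite sides of aged in aged-sec oocytes. Eif4g3 (NM_001369131), another eIF4G, stood at 0.99, 3.38 and 2.68 TPM, a log2 ratio of aged-sec over aged of −1.38. Eif4e2 (NM_001039170), the cap-binding repressor 4EHP, stood at 1.11, 0.45 and 0.25 TPM. The entered rows of all these genes were below 10 TPM in every library, too low for the size rule.

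Of the eIF2 complex, its exchange factor eIF2B and its kinases 8 of 15 genes were listed. All 8 were below aged in aged-sec oocytes as deposited, with 4 below under equal-median scaling and 6 under median-of-ratios scaling. Eif2s3x had the lowest aged-sec over aged ratio of the members that reached 10 TPM, 0.62, and its ratio was 0.79 and 0.76 under those scalings. Eif2s1 stood at 17.9 TPM in aged-sec, 21.6 TPM in aged and 10.9 TPM in young oocytes. Aged-sec thus remained nearer to aged for the alpha subunit and nearer to young for the gamma subunit. Eif2a (NM_001005509), a factor that can bring initiator tRNA without eIF2, stood at 13.2, 14.4 and 10.2 TPM. Eif2d (NM_001136070), with a similar role, stood at 2.05, 3.84 and 2.82 TPM and ended below young. Of eIF2B, which reloads eIF2 with GTP, the listed subunit genes were Eif2b2, Eif2b3 and Eif2b5. Of these Eif2b2 (NM_145445) was the highest, at 2.71 TPM in aged-sec, 3.44 TPM in aged and 2.55 TPM in young oocytes. Eif2ak2 (NM_011163), the double-stranded RNA kinase PKR, was the only listed eIF2 kinase and stood at 1.23, 1.54 and 0.74 TPM.

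Of 14 eIF3 subunit genes 3 were listed. Eif3e (NM_008388) was the most abundant of all 51 members and stood at 346 TPM in aged-sec, 283 TPM in aged and 217 TPM in young oocytes. Aged-sec was the highest of the 3 libraries, at 1.22 times aged and 1.59 times young. Eif3d (NM_018749), the subunit with a cap-binding activity of its own in human cells, stood at 6.60 TPM in aged-sec, 8.30 TPM in aged and 5.33 TPM in young oocytes. Eif3b (NM_133916), a core scaffold subunit, stood at 2.98, 2.89 and 2.39 TPM. As deposited aged-sec was thus the highest library for Eif3e and Eif3b, and aged was the highest for Eif3d. Below aged in aged-sec oocytes was 1 of the 3 as deposited, 0 under equal-median scaling and 1 under median-of-ratios scaling.

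Of the eIF1, eIF5 and eIF6 group 3 of 10 genes were listed, all below aged in aged-sec oocytes as deposited, with 1 below under either scaling. Eif5 (NM_173363), which makes eIF2 hydrolyse its GTP when the start codon is found, stood at 254 TPM in aged-sec, 284 TPM in aged and 232 TPM in young oocytes. Eif5a (NM_181582), the hypusine-bearing factor that helps ribosomes through difficult peptide bonds, stood at 106, 121 and 98.0 TPM. For both, the 3 libraries lay within a ratio of 1.24 as deposited. Eif5a also had 3 rows marked as second copies of its accessions, and its rows summed to 250 TPM in aged-sec, 346 TPM in aged and 218 TPM in young oocytes. The aged over young ratio of Eif5a was 1.58 from these sums and 1.24 from the entered row. Of these copies, that of NM_001166596 stood at 1.81 TPM in aged-sec, 12.2 TPM in aged and 7.60 TPM in young oocytes. It was the only member row, entered or not, past the size rule between aged-sec and aged, with a log2 ratio of −2.46. The copy of NM_001166595 stood at 59.9, 78.8 and 31.5 TPM and met the rule for aged over young. Copies share reads, so these rows are uncertain. Eif1ad (NM_027236), which carries an eIF1A-like domain, stood at 3.61, 4.72 and 3.35 TPM.

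Of 14 elongation genes 3 were listed, all below aged in aged-sec oocytes as deposited and 2 of them under either scaling. Eef1a1 was described above. As deposited aged-sec stayed close to aged for it, at a ratio of 0.93, and 1.89 times young. Eef1d (XM_006521272), part of the exchange factor that recharges eEF1A, stood at 1.43 TPM in aged-sec, 1.84 TPM in aged and 0.90 TPM in young oocytes. Eefsec (XM_006506465), which delivers selenocysteine tRNA, stood at 1.37, 1.87 and 1.05 TPM.

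**Figure D4:**
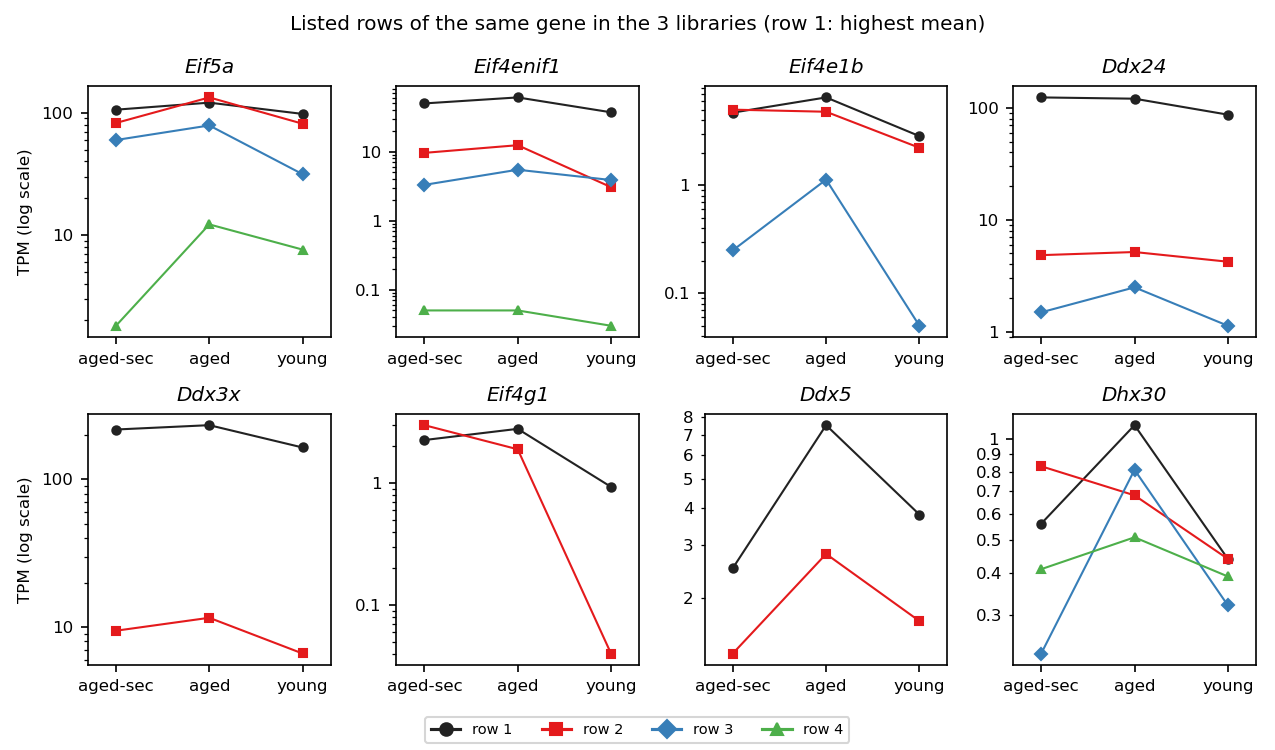
TPM (log axis) of each listed row of 8 genes with several rows in the aged-sec, aged and young libraries, row 1 being the entered one and lines joining values of 1 row. Rows of Eif4e1b, Eif4g1, Dhx30 and Ddx24 differ in whether aged-sec lies above or below aged. Both rows of Ddx5 and of Ddx3x have their highest value in aged.

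Of the 18 Ddx genes 14 were below aged in aged-sec oocytes as deposited, 7 under equal-median scaling and 11 under median-of-ratios scaling. Helicases of translation and storage were led by Ddx3x (NM_010028), which opens structured mRNA leaders for initiation, at 218 TPM in aged-sec, 233 TPM in aged and 164 TPM in young oocytes. Aged-sec and aged were close, at a ratio of 0.93. Ddx6 (XM_030244042), which represses and stores mRNA together with 4E-T, was listed through 2 of 7 annotated mRNAs, the higher at 7.49, 6.30 and 5.25 TPM. Ddx4 (XM_006517524), the germ cell helicase Vasa, was listed through 1 predicted variant of 7 annotated mRNAs, at 0.17, 0.69 and 0.34 TPM, and gives no level for the gene.

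The listed nucleolar helicases of ribosome assembly were Ddx18, Ddx21, Ddx24, Ddx31, Ddx47, Ddx56 and Dhx37, of which Ddx24 alone passed 10 TPM. Ddx24 (NM_020494) stood at 124 TPM in aged-sec, 121 TPM in aged and 87.0 TPM in young oocytes. As deposited the aged-sec and aged libraries were thus almost equal and both above young. With equal medians and median of ratios aged-sec was 1.32 and 1.26 times aged, and 0.95 and 1.01 times young. Ddx47 (NM_026360) came next at 3.78, 5.51 and 4.47 TPM and Ddx21 (NM_019553) at 3.03, 3.85 and 3.19 TPM. Ddx18 (XM_006529794) stood at 1.29, 0.94 and 0.31 TPM, so that aged-sec was 4.16 times young at a low level. Ddx31, Ddx56 and Dhx37 were at 0.32 TPM or less in every library.

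Ddx19a and Ddx19b, near-identical genes whose proteins release mRNA at the nuclear pore, had the same aged-sec over aged ratio of 0.79. Ddx19a (NM_007916) stood at 27.6 TPM in aged-sec, 34.8 TPM in aged and 27.9 TPM in young oocytes. Ddx19b (NM_172284) stood at 4.72, 5.95 and 4.46 TPM. Reads of the pair can be divided between them, so their likeness is uncertain.

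Splicing helicases were mostly low. Ddx46 (NM_001282055), the counterpart of yeast Prp5, stood at 16.0 TPM in aged-sec, 19.9 TPM in aged and 15.0 TPM in young oocytes. Ddx5 (NM_001355677), which also acts in transcription, stood at 2.52, 7.54 and 3.80 TPM and had the lowest aged-sec over aged log2 ratio of all members, −1.41. Its second listed row followed the same order, and the sum of both rows, 3.83, 10.4 and 5.48 TPM, met the size rule. This gene had 2 of 3 annotated mRNAs listed. Ddx23, Dhx16, Dhx35 and Dhx38 were at 1.04 TPM or less in every library. Of these Dhx16 was present as 2 rows with identical values, which count as 1 measurement.

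Of the RNA sensors, Ddx58 (NM_172689), which encodes RIG-I, stood at 3.63 TPM in aged-sec, 4.10 TPM in aged and 1.10 TPM in young oocytes. Ddx60 (XM_006509396), an antiviral helicase, stood at 1.90, 2.93 and 1.48 TPM. The aged over young ratio of Ddx58, 3.73, was the highest among the 13 members with every annotated mRNA listed, at levels too low for the size rule. Ddx59 (NM_026500), which was placed neither with the sensors nor in another of these role groups, stood at 10.4, 10.9 and 8.81 TPM.

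All 8 Dhx genes were below aged in aged-sec oocytes as deposited, with 5 below under equal-median scaling and 6 under median-of-ratios scaling. Dhx57 (XM_030249437) was the only one above 10 TPM, at 16.3 TPM in aged-sec, 22.3 TPM in aged and 16.7 TPM in young oocytes. Aged-sec and young were nearly equal for it as deposited, while aged-sec was 0.65 and 0.69 times young under those scalings. Dhx40 (NM_026191) stood at 5.94, 7.55 and 5.20 TPM, and Dhx9 (XM_011247918), RNA helicase A, at 1.14, 2.18 and 1.29 TPM. Dhx30, a helicase of mitochondrial RNA granules in human cells, had 4 listed rows of 23 annotated mRNAs, none above 1.10 TPM. Nearer to young than to aged in aged-sec oocytes were 17 of the 26 helicases (65.4%) and 11 of the 25 translation factors (44%). Of all symbols 42.6% were nearer to young, and whether these shares differ was not tested. Under equal-median scaling the counts were 8 and 6, against 41.5% of all symbols, and under median-of-ratios scaling 10 and 6, against 41.1%. The helicases' share was thus above that of all symbols as deposited and below it under either scaling.

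In maturing oocytes many stored mRNAs gain a longer poly(A) tail through cytoplasmic polyadenylation elements, U-rich motifs near the 3′ end that bind CPEB1. The libraries were made with SMART-Seq2, which primes on poly(A), so more mRNA and more tailed mRNA cannot be told apart in these values. The last 100 bases of the matching GENCODE M21 transcript were searched on the transcript's strand for TTTTAT or TTTTAAT. Of 36 members with a matching transcript 8 had one, or 22.2%, against 20.7% of 3695 listed genes treated the same way. In Ddx25 and Ddx47 the motif lay after the poly(A) signal, 6 bases from the annotated end. The sites of the most abundant of these members and of both members past the size rule that had one are shown as 30 bases in GRCm38, 5′ to 3′, with the motif in capitals.
Ddx3x, chrX:13293944-13293973, plus strand: tgcatattctggTTTTATtaaaataaaaag
Eef1a1, chr9:78478506-78478535, minus strand: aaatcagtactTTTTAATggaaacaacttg
Ddx25, chr9:35536647-35536676, minus strand: caataaagatattaacctTTTTATtgaaaa
The 8 members with a motif, these 2 included, had a median log2 ratio of aged over young of 0.39 and of aged-sec over aged of −0.31, against 0.46 and −0.28 for the 28 without one. Whether these medians differ was not tested, and annotated 3′ ends may not be those used in oocytes.

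Genes that work with the members but carry other names were described through 6 lists. Their counts past the size rule are to be read against the shares of all symbols that were higher. These were 4.59% for aged over young and 3.74% for aged-sec over young. Among symbols with 10 TPM or more in the higher library they were 15.9% and 14.2%. Whether any list differs from these shares was not tested. Of 42 poly(A)-binding and oocyte translational control genes 20 were listed, 11 of them at 10 TPM or more. Their medians were 0.47 for aged over young and −0.22 for aged-sec over aged. The most abundant were G3bp2, a stress granule protein, at 334 TPM in aged-sec, 371 TPM in aged and 270 TPM in young oocytes, and Pabpn1l, a poly(A)-binding protein of oocytes, at 339, 313 and 226 TPM. The size rule for aged over young was met by Cpeb4 (NM_001290676, 7.28, 10.2 and 4.52 TPM) and Igf2bp3 (XM_006505517, 6.42, 11.3 and 1.05 TPM). Cpeb1 (NM_007755), which binds the element described above, stood at 19.2 TPM in aged-sec, 11.3 TPM in aged and 8.60 TPM in young oocytes and met the rule for aged-sec over young. Of the 20 listed genes of this group 16 were below aged in aged-sec oocytes as deposited and 4 above. This was 80% below, against 72.5% of all symbols. Of all symbols 44.1% were below with equal medians and 49.7% with median of ratios, and scaled counts were not taken for this group.

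Of 13 listed RNA helicases with other names 3 reached 10 TPM. Dicer1 (XM_017314998), which cuts small RNA precursors, met the rule for aged over young and for aged-sec over young. It stood at 98.2 TPM in aged-sec, 114 TPM in aged and 45.1 TPM in young oocytes. The most abundant was Tdrd12, a piRNA pathway helicase, at 208, 242 and 133 TPM. Of 13 aminoacyl-tRNA synthetase genes listed, 7 of them at 10 TPM or more, 2 met the rule for aged over young. These 2 were a second copy of Farsb (NM_011811), at 66.7, 104 and 0.55 TPM, and Iars (NM_172015), at 32.4, 38.7 and 16.9 TPM. The Farsb copy also met the rule for aged-sec over young. Copies share reads, so the Farsb row is uncertain. Hars stood at 32.0, 43.1 and 33.4 TPM. No gene met the rule in any comparison among 9 listed TOR and MNK signalling genes, 15 termination and rescue genes and 6 mitochondrial translation factors, of which only 2, 4 and 1 reached 10 TPM and could have met it. Their most abundant members were Rps6kb1 (12.8, 20.9 and 14.0 TPM) and Rictor (16.3, 17.9 and 12.9 TPM), Nemf (125, 111 and 77.7 TPM) and Upf3b (42.8, 49.2 and 30.9 TPM), and Mtfmt (8.58, 11.2 and 8.16 TPM) and Mrrf (7.39, 7.20 and 4.83 TPM), always as aged-sec, aged and young. No list had a gene past the rule between aged-sec and aged, as among the members.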

How the data were processed

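Per the labels' protocols, SMART-Seq2 cDNA of pooled oocytes went into transposon-based libraries, and the series' design text names the DNBSEQ platform. The authors deposited 1 table with TPM per RefSeq transcript, per the file headers, although it was named as raw counts. Its 2 ratio columns were deposited by the authors as quotients of those TPM (aged by young, aged-sec by aged), and recomputing them differed by at most 6.64e-07 of the value. No source used here gives the aligner, the quantification program or the genome build.

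Members were taken by symbol prefix, 1 row per symbol (the highest mean TPM). Of the 51 entered rows 38 were curated and 13 predicted transcripts, and 72 of the 73 member rows matched RefSeq of assembly GRCm38.p6, used for annotation and promoters only. Log2 ratios had 0.5 TPM added to each value. Named genes were, per family, those past the size rule, the 3 most abundant, the extremes of aged-sec over aged at 10 TPM or more, and key factors such as Ddx4, Ddx6 and Eif4e1b; for each other list, the 2 most abundant and those past the rule. Some genes were added for the picture they give. Members, lists and roles were chosen with earlier results of these data known. Precision is limited by 1 library per group. Python 3.11.15, pandas 2.3.3 and NumPy 2.4.6 were used, and the size rule was tested on simulated data. Alternatives covered the row per gene, the added TPM, the minimum TPM, the fold and the scaling.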

Additional observations from a re-analysis of the deposited data

How the results depend on the processing

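Scaling the libraries on the listed rows moved every log2 ratio alike where nothing was added to the TPM, and by less with 0.5 TPM added. With nothing added the shift for aged over young was −0.95 with equal medians and −0.79 with median of ratios, for aged-sec over aged 0.36 and 0.29, and for aged-sec over young −0.58 and −0.50. Since the rows were selected for being higher in aged, such scaling removes part of that excess by construction. In that order of scalings, and with 0.5 TPM added, the members' median became −0.23 and −0.14 for aged over young, 0.024 and −0.043 for aged-sec over aged, and −0.18 and −0.15 for aged-sec over young. The median over all symbols, 0.47, −0.20 and 0.29 for these comparisons as deposited, became −0.12, 0.04 and −0.07 with equal medians and −0.04, 0.0024 and −0.03 with median of ratios. With equal medians 21 members were below aged in aged-sec oocytes. No member met the size rule for aged over young under either scaling, against 0.344% of all symbols with equal medians and 0.59% with median of ratios. Among members at 10 TPM or more, 14 of 17 were below aged, and the medians were −0.19 for aged-sec over aged and 0.38 for aged-sec over young. For aged over young, 1 TPM added left 0 members past the rule, no minimum TPM gave 7, and a 1.5-fold threshold 5. The shares of all symbols past the rule were 4.06%, 13.2% and 12.8% in that order. For aged-sec over aged, summed rows and a 5 TPM minimum each called 1 member (Ddx5, lower). No minimum called 2 (Ddx5 and Eif4g3, lower), and 1.5-fold called 1 (Eif2s3x, lower). The shares of all symbols that were lower were 0.688%, 1.43%, 5.1% and 3.13% for these settings in turn. For aged-sec over young, no minimum called 5 members, 4 higher and 1 lower, against 9.73% and 0.836% of all symbols. The 1.5-fold threshold called 4 (Eef1a1, Eif2s1, Eif3e and Eif4g2, higher), against 8.93% of all symbols that were higher. The other alternatives left these counts within 1.5 times and the medians within 0.1. Depth is unknown, so genes near 1 TPM cannot be read as changed. No paired analysis was possible because each group had 1 library.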
